A study of Mus musculus with 45 samples.

Results

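The 7 chemokine genes Ccl22, Ccl17, Ccl3, Ccl4, Ccl5, Cxcl10 and Cxcl16 were followed through B cell activation and plasma cell differentiation in culture. They were taken by gene symbol from both deposited expression tables, and all 7 were found among 28196 genes. All 7 also passed the filter on low values in both tables. RNA was read from mouse splenic B2 cells and their cultures in 45 libraries, 3 in each of 15 groups, all on a C57BL/6 background.

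The dEx1A groups came from Prdm1Δex1A mice, which lack exon 1A of Prdm1, the gene of the plasma cell factor Blimp-1, and were labelled as females aged 9 weeks. They were cultured in LPS, TLR or BCR conditions and taken at days 4 and 7. Wild-type mice gave B cells at day 0, TLR and BCR cultures at days 4, 7 and 10 (labelled males aged 7 weeks), and LPS cultures at days 4 and 7 (labelled females aged 9 weeks). The TLR culture held 5 µg/mL LPS with irradiated L cells that display CD40L, and 50 ng/mL each of IL-4 and IL-5. The BCR culture replaced LPS by 12 µg/mL F(ab')2 antibody to IgM and IgG, with the same feeders and cytokines. Feeders were left behind on day 2, and cells were given 10 ng/mL IL-6 and 100 ng/mL APRIL from day 4. The labels name the LPS culture but do not describe its feeders or cytokines. Days 4 and 7 are labelled plasmablasts and day 10 plasma cells. Whether the 3 libraries per group stem from different mice is not labelled, so p-values measure the spread between these samples, which may be technical. In such bulk libraries fewer cells of a type and less RNA per cell cannot be told apart.

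Chemokines are small secreted proteins that steer leukocytes by binding G protein-coupled receptors. CCL22 and CCL17 share the receptor CCR4 of helper and regulatory T cells, and IL-4 acting through STAT6 is a known inducer of both. CCL3, CCL4 and CCL5 draw T cells, monocytes and natural killer cells, and activated B cells release CCL3 and CCL4 after antigen receptor ligation. CXCL10 is an interferon-inducible ligand of CXCR3, and CXCL16 is made as a membrane protein that ADAM proteases cut free and that binds CXCR6.

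The genes lie in 4 places of the mouse genome (GRCm38, GENCODE M21). Ccl22 (chr8:94745590-94751699, plus strand) and Ccl17 (chr8:94810453-94812036, plus strand) are separated by 1 gene, the chemokine Cx3cl1. Ccl5 (chr11:83525778-83530518, minus strand), Ccl3 (chr11:83647844-83649355, minus strand) and Ccl4 (chr11:83662584-83664683, plus strand) belong to the CC chemokine cluster, in which Ccl9 and Ccl6 sit between Ccl5 and Ccl3. Cxcl16 (chr11:70453983-70459984, minus strand) and Cxcl10 (chr5:92346638-92348889, minus strand) lie apart from these.

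RefSeq promoter sequence (GRCm38.p6), covering 250 bases before and 50 bases after the annotated start, was at hand for 4 of the 7 genes. Those of the CCR4 ligand pair and of Cxcl10 are shown because at day 7 the CCR4 ligands were lower, and Cxcl10 higher, in dEx1A LPS cells than in dEx1A TLR or BCR cells. Ccl3 was also lower in both comparisons (−2.09 and −3.58), and its window, which held no match to the motifs searched, is not shown. Capitals mark matches to NF-kB (GGGA, 4 bases of any kind, CC), STAT (TTC, 3 of any kind, GAA), STAT6 (TTC, 4 of any kind, GAA), ISRE (GAAA, 2 of any kind, GAAA) and AP-1 (TGA, 1 of any kind, TCA) letters, searched on both strands. The windows are chr8:94745434-94745733 (plus strand) for Ccl22, chr8:94810203-94810502 (plus strand) for Ccl17 and chr5:92348840-92349139 (minus strand) for Cxcl10.
Ccl22: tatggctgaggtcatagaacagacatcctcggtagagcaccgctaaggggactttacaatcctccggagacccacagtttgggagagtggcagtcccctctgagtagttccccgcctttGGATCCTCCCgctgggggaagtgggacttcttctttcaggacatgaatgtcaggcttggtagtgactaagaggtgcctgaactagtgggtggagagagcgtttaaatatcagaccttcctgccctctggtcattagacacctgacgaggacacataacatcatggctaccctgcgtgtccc
Ccl17: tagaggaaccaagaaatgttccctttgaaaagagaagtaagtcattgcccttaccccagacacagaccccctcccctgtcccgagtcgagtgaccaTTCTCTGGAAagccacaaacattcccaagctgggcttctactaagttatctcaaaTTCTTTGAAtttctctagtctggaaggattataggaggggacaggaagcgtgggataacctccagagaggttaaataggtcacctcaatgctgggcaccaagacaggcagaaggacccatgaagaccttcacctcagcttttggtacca
Cxcl10: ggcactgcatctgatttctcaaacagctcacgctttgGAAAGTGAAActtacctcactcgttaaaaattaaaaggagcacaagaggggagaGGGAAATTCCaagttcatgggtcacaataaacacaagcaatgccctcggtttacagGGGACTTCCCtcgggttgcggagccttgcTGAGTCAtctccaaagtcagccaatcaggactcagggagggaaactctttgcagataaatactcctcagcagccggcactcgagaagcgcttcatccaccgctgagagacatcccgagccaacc
The Ccl22 window held 1 NF-kB match on the reverse strand, at −131 to −122 from the RefSeq start, which is not the start in GENCODE M21. The Ccl17 window held a STAT6 match at −154 to −145 and a STAT match at −99 to −91, each read on both strands. The Cxcl10 window held an ISRE match at −213 to −204, NF-kB matches at −159 to −150 and −103 to −94, and an AP-1 match at −74 to −68. None of the 5 motifs was found in the Ccl3 window. Over 32851 mouse promoters of the same length, 20.7% held the NF-kB letters, 8.3% the STAT letters, 6.95% the STAT6 letters, 3.44% the ISRE letters and 7.81% the AP-1 letters. A match describes these letters and does not show that a factor bound there.

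Values are the authors' variance-stabilised log2 expression, on which 0 reads sit at 3.04, and differences are in log2 units with the standard error of the fit. All adjusted p-values are from limma with Benjamini-Hochberg adjustment over all genes kept, and a gene was called where this fell below 0.05. Libraries held 15.1 to 35.47 M reads, as recovered from the values (median 23.16 M reads). The 15 libraries under 20 M reads were those of WT LPS days 4 and 7 and of the dEx1A day 7 groups, and they also stood apart in base composition. Their GC-rich genes (upper quartile) exceeded their GC-poor genes (lower quartile) by 0.66 to 1.44 log2 units relative to the mean library, against −1.55 to 0.51 in the other 30. Comparisons across these sets are dEx1A with WT at LPS day 4, TLR day 7 and BCR day 7, dEx1A day 7 with day 4, and WT LPS day 4 with B cells. Gene-level Prdm1 averaged 8.18 to 11.81 in the 6 dEx1A groups and 9.74 to 13.47 in the 8 WT culture groups, against 6.50 in day 0 B cells. The values cover the whole gene and not exon 1A alone, so they do not check the deletion.

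**Figure D1:**
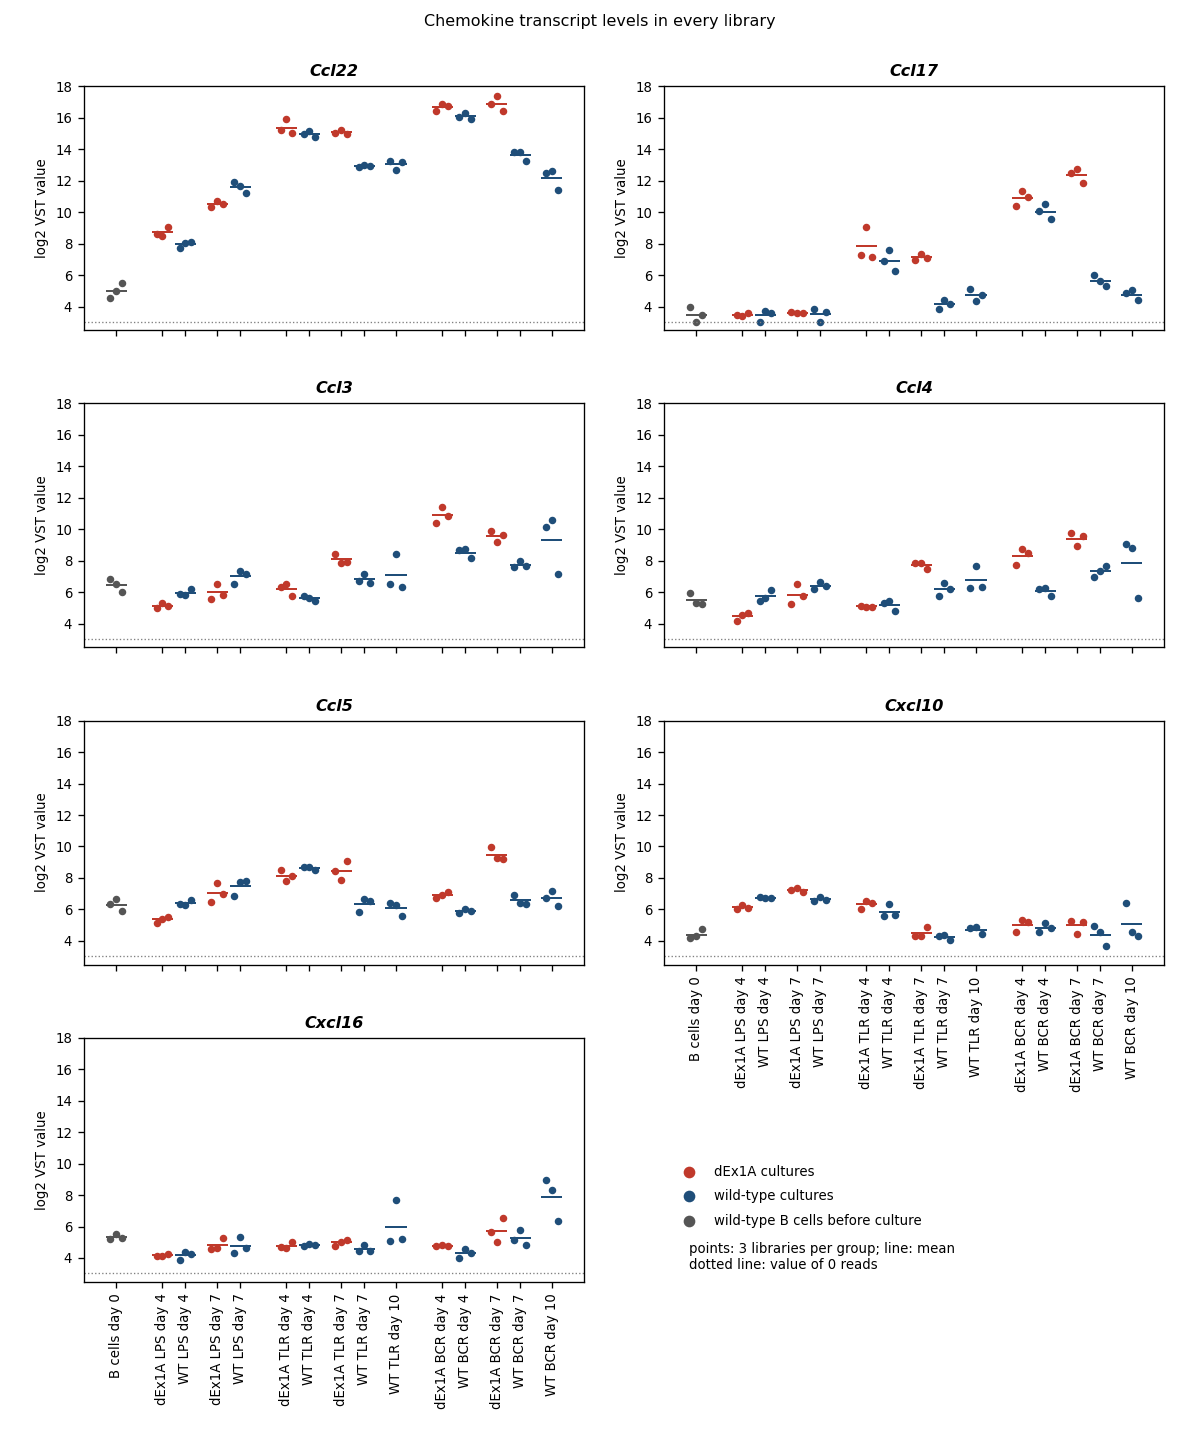
Log2 expression of each chemokine gene (y axis, variance-stabilised value) in every library of the 15 groups (x axis), with points for the 3 libraries, a line for their mean and a dotted line at the value of 0 reads. Ccl22 and Ccl17 covered 11.9 and 8.91 log2 units between their highest and lowest group, while Cxcl10 stayed between group means of 4.26 and 7.23.

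Among the genes kept in both tables, Ccl22 had one of the widest ranges. Its group means spanned 11.9 log2 units, and 5 of 19124 genes spanned more. Ccl17 spanned 8.91 units (37 genes wider), and the median gene 1.78. The spans of Ccl3, Ccl4, Ccl5, Cxcl16 and Cxcl10 were 5.74, 4.95, 4.11, 3.72 and 2.96 units. Per length, Ccl22 had the highest level of the 7 in all 14 culture groups, while in day 0 B cells Ccl3 (98.0 normalised reads per kb), Ccl5 (66.7) and Ccl4 (48.0) stood above Ccl22 (8.2).

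Ccl22, a ligand of CCR4, was near the floor in resting B cells and became one of the most abundant messages of the TLR and BCR cultures. In the WT TLR series it read 4.54, 5.01 and 5.49 in day 0 B cells, 14.98, 15.19 and 14.78 at day 4, 12.90, 13.00 and 12.95 at day 7, and 13.28, 12.67 and 13.18 at day 10. The day 4 libraries lay far above every B cell library, and the day 7 libraries lay below every day 4 library. The day 4 TLR culture exceeded B cells by 9.97 ± 0.29 (adjusted p = 8.59e-14), and day 7 differed from day 4 by −2.03 ± 0.29 (adjusted p = 2.59e-05). Days 10 and 7 overlapped (0.09 ± 0.29, adjusted p = 0.888).

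The WT BCR series of Ccl22 read 16.04, 16.33 and 15.93 at day 4, 13.86, 13.86 and 13.24 at day 7, and 12.52, 12.62 and 11.39 at day 10. No library of one day overlapped another day, and the level fell at each step. The rise over B cells was 11.09 ± 0.29 (adjusted p = 1.62e-14), and the later steps were −2.45 ± 0.29 (adjusted p = 3.95e-06) and −1.48 ± 0.29 (adjusted p = 0.00232). Per length, Ccl22 stood at 30414 normalised reads per kb in BCR day 4 cells, rank 10 of 16392 protein-coding genes, against 8.2 reads per kb and rank 9790 in B cells. The step from day 7 to day 10 lost its call when only those groups entered the fit (adjusted p = 0.0853).

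Ccl17, the other CCR4 ligand, was also higher at day 4 than in B cells, at a lower level. In the WT TLR series it read 3.99, 3.04 and 3.48 in B cells, 6.91, 7.62 and 6.27 at day 4, 3.87, 4.40 and 4.17 at day 7, and 5.13, 4.39 and 4.76 at day 10. In the WT BCR series it read 10.06, 10.54 and 9.55 at day 4, 6.03, 5.64 and 5.30 at day 7, and 4.84, 5.05 and 4.43 at day 10. Day 4 stood above B cells and above day 7 in every library of both cultures. The rise over B cells was 3.43 ± 0.35 in TLR (adjusted p = 2.17e-07) and 6.55 ± 0.35 in BCR (adjusted p = 4.29e-11). Day 7 differed from day 4 by −2.79 ± 0.35 in TLR (adjusted p = 5.5e-06) and by −4.39 ± 0.35 in BCR (adjusted p = 2.75e-08). Per length, BCR day 4 cells held 2112 normalised reads per kb of Ccl17 and 30414 of Ccl22.

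The stimulus separated the pair at day 4. WT TLR libraries lay below all WT BCR libraries for both genes, by −1.12 ± 0.29 for Ccl22 (adjusted p = 0.0223) and −3.12 ± 0.35 for Ccl17 (adjusted p = 1.14e-05). The Ccl22 call was lost without TLR replicate 1 or 3 or BCR replicate 1 or 2 (adjusted p = 0.0651 to 0.0899). It was kept with the replicate number as a block (adjusted p = 0.0262). That block spans all WT day 0, TLR and BCR groups and is not a paired test of the day 4 cultures. At day 7 the difference was −1.51 ± 0.35 for Ccl17 (adjusted p = 0.0143) and −0.70 ± 0.29 for Ccl22 (adjusted p = 0.18). That of Ccl17 was lost without TLR replicate 1 or BCR replicate 1 or 2 (adjusted p = 0.0553 to 0.0808). At day 10 Ccl22 differed by 0.87 ± 0.29 (adjusted p = 0.054) and Ccl17 by −0.01 ± 0.35 (adjusted p = 0.989).

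In the LPS culture the CCR4 ligands parted. WT LPS cells read 7.76, 8.05 and 8.11 for Ccl22 at day 4, against 4.54, 5.01 and 5.49 in B cells. By day 7 the WT LPS libraries reached 11.94, 11.70 and 11.23, so that this culture rose over the interval in which the TLR and BCR cultures fell. The steps were 2.96 ± 0.24 (adjusted p = 6.69e-12) and 3.65 ± 0.24 (adjusted p = 2.72e-11). The first crosses sex, age and read depth, which cannot be told apart from the culture, and the second lies within 1 sex, age and depth set. Ccl17 stayed between 3.04 and 3.87 in all 12 LPS libraries of both genotypes and overlapped B cells (3.04 to 3.99). WT LPS differed from B cells by −0.04 ± 0.38 for Ccl17 (adjusted p = 0.956).

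CCR4 ligand levels were higher in dEx1A than in WT cells at day 7 in the TLR and BCR cultures. Sex, age and depth set differ with genotype there and cannot be told apart from it. In BCR day 7 cultures Ccl17 read 12.51, 12.74 and 11.85 in dEx1A libraries, against 6.03, 5.64 and 5.30 in WT libraries. The groups were separated by more than 5 log2 units, and the difference was 6.71 ± 0.38 (adjusted p = 1.25e-14). Ccl22 read 16.87, 17.41 and 16.46 in dEx1A, against 13.86, 13.86 and 13.24 in WT (3.26 ± 0.24, adjusted p = 4.94e-12). It had rank 6 of 16392 protein-coding genes per length in these dEx1A cells and rank 63 in the WT cells. In TLR day 7 cultures Ccl17 read 6.96, 7.33 and 7.11 in dEx1A, against 3.87, 4.40 and 4.17 in WT (2.99 ± 0.38, adjusted p = 1.93e-07). Ccl22 there read 15.06, 15.23 and 14.99 in dEx1A, against 12.90, 13.00 and 12.95 in WT (2.14 ± 0.24, adjusted p = 3.18e-08). No dEx1A library overlapped a WT library in these 4 comparisons.

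At day 4 neither gene passed in these cultures. Ccl22 differed by 0.39 ± 0.24 in TLR (adjusted p = 0.344) and 0.59 ± 0.24 in BCR (adjusted p = 0.323), and Ccl17 by 0.91 ± 0.38 (adjusted p = 0.143) and 0.87 ± 0.38 (adjusted p = 0.377). With libraries centred on their median, or corrected for GC content and length, Ccl17 passed in TLR (1.11 in both, adjusted p = 0.0394 and 0.0284). The genotype difference grew between days 4 and 7 by 5.84 ± 0.53 for Ccl17 in BCR (adjusted p = 2.87e-09), by 2.67 ± 0.34 for Ccl22 in BCR (adjusted p = 8.91e-07), by 2.08 ± 0.53 for Ccl17 in TLR (adjusted p = 0.00193) and by 1.75 ± 0.34 for Ccl22 in TLR (adjusted p = 0.000155). Over all genes, 33.9% were called in this test in BCR and 49.4% in TLR, and 3 and 4 of the 7 members. In the dEx1A cultures themselves Ccl22 differed between days 7 and 4 by −0.28 ± 0.24 in TLR (adjusted p = 0.319) and 0.22 ± 0.24 in BCR (adjusted p = 0.464), and Ccl17 rose by 1.45 ± 0.38 in BCR (adjusted p = 0.00187).

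In the LPS culture Ccl22 was higher in dEx1A cells at day 4 and lower at day 7. At day 4 it read 8.61, 8.52 and 9.07 in dEx1A, against 7.76, 8.05 and 8.11 in WT (0.76 ± 0.24, adjusted p = 0.0208). At day 7 it read 10.33, 10.74 and 10.50 in dEx1A, against 11.94, 11.70 and 11.23 in WT (−1.10 ± 0.24, adjusted p = 0.00266). The groups did not overlap on either day, and the change of the genotype difference was −1.86 ± 0.34 (adjusted p = 0.00123, where 5.48% of genes were called). The day 4 call was lost without WT replicate 1 or dEx1A replicate 3 (adjusted p = 0.0944 and 0.11). Both LPS genotypes are labelled 9-week females, and at day 7 both lie in the set under 20 M reads.

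Other cells that could supply CCR4 ligands were followed by marker lists, and their part in the results was not tested. Of 8 dendritic cell markers, Clec9a was at 0 reads in all day 4 TLR and BCR libraries of both genotypes, and Cd209a averaged 3.32 to 3.56 there against 5.89 in B cells. The summed reads of that list were 1487 to 1767 in WT TLR day 4 and 503 to 675 in WT BCR day 4, against 236 to 347 in B cells. In WT TLR day 4 the list was led by Flt3 (10.02), Zbtb46 (8.79) and Batf3 (7.59). Of 9 fibroblast markers tested, 8 rose at day 4 in both TLR and BCR cultures, with summed reads of 1624 to 3361 and 2643 to 4886, against 35 to 117 in B cells (48.3% and 50.6% of genes called). In BCR day 7 cultures their sum was 4974 to 7027 in dEx1A and 483 to 605 in WT. Thy1 accounted for most of the dEx1A sum (12.55 in dEx1A, 7.71 in WT). The 16 macrophage markers summed to 20803, 6916 and 35242 in the dEx1A BCR day 7 libraries, against 4270 to 10084 in WT. The dendritic cell list summed to 1547, 1317 and 1718 in dEx1A BCR day 7 libraries, against 621, 584 and 489 in WT, with no overlap. Of its 8 markers, 3 rose and 2 fell (50.8% of genes called), with Batf3 at 8.98 in dEx1A and 4.39 in WT, and Clec9a at 0 reads in all dEx1A libraries. In TLR day 7 cultures the fibroblast sum was 625 to 694 in dEx1A and 74 to 211 in WT, and the macrophage sum 6343 to 10738 in dEx1A and 2384 to 4467 in WT, so neither overlapped. Replicate 2, the dEx1A library with the lowest macrophage sum, had the highest Ccl22 and Ccl17 of the dEx1A BCR day 7 group. The fibroblast sums of that group, 6986, 7027 and 4974 in replicates 1, 2 and 3, had the same order as both genes. The part of either list was not tested.

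Ccl3 and Ccl4, inflammatory CC chemokines that lie side by side, formed a second pair, with group means correlated at 0.88 over the 15 groups. These groups share libraries, cultures and depth sets, so the value is a description. Ccl3 read 6.87, 6.50 and 6.02 in B cells. It read 8.68, 8.75 and 8.16 in WT BCR cells at day 4, above all B cell libraries (2.07 ± 0.64, adjusted p = 0.0117). In WT TLR cells at day 4 it read 5.74, 5.67 and 5.44 (−0.85 ± 0.64 against B cells, adjusted p = 0.294). TLR lay below BCR at day 4 in every library (−2.91 ± 0.64, adjusted p = 0.00743). Ccl4 differed by −0.89 ± 0.63 between TLR and BCR at day 4 (adjusted p = 0.527). At day 7 the TLR minus BCR differences were −0.91 ± 0.64 for Ccl3 (adjusted p = 0.461) and −1.13 ± 0.63 for Ccl4 (adjusted p = 0.335).

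These genes were the members called between genotypes in the BCR culture at day 4. Ccl3 read 10.40, 11.44 and 10.87 in dEx1A, against 8.68, 8.75 and 8.16 in WT (2.37 ± 0.27, adjusted p = 8.49e-07). Ccl4 read 7.76, 8.76 and 8.47 in dEx1A, against 6.23, 6.30 and 5.79 in WT (2.22 ± 0.30, adjusted p = 1.14e-05). All dEx1A libraries were above all WT libraries for both genes. This set 2 of 7 members higher, where 1.86% of 20331 genes were called in either direction. The macrophage markers summed to 3340, 4947 and 5179 reads in these dEx1A libraries, against 1935, 2513 and 1989 in WT, without overlap, and none of the 16 passed. The dEx1A library with the lowest sum, replicate 1, also had the lowest Ccl3 and Ccl4 of its group, and the part of these markers was not tested. All 6 libraries lie above 20 M reads, but sex and age differ between the genotypes and cannot be told apart from them. In TLR at day 4 the differences were 0.60 ± 0.27 for Ccl3 (adjusted p = 0.185) and −0.12 ± 0.30 for Ccl4 (adjusted p = 0.854). Median centring made the Ccl3 value 0.80 (adjusted p = 0.039). The genotype differences of TLR and BCR differed from each other by −1.77 ± 0.39 for Ccl3 (adjusted p = 0.0181) and −2.35 ± 0.42 for Ccl4 (adjusted p = 0.00306), where 0.753% of genes were called.

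By day 7 the dEx1A cells carried more Ccl3 and Ccl4 in both the TLR and the BCR culture. In BCR, Ccl3 read 9.88, 9.21 and 9.65 in dEx1A, against 7.58, 7.96 and 7.68 in WT (1.84 ± 0.27, adjusted p = 2.24e-06), and Ccl4 read 9.75, 8.93 and 9.58 in dEx1A, against 6.96, 7.34 and 7.68 in WT (2.09 ± 0.30, adjusted p = 9.94e-07). In TLR, Ccl3 read 8.44, 7.87 and 7.95 in dEx1A, against 6.72, 7.14 and 6.62 in WT (1.26 ± 0.27, adjusted p = 0.000302). Ccl4 read 7.85, 7.87 and 7.47 in dEx1A, against 5.76, 6.62 and 6.21 in WT (1.53 ± 0.30, adjusted p = 7.88e-05). The genotypes did not overlap in any of the 4 comparisons. The dEx1A BCR replicate with the fewest macrophage marker reads was the lowest of its group for both genes, and the part of these markers was not tested. In TLR the macrophage markers summed to 6854, 6343 and 10738 reads in dEx1A, against 2384, 4467 and 2615 in WT, and 5 of the 16 rose and 1 fell (54.8% of genes called), and their part was not tested. Between days 7 and 4 of the dEx1A cultures Ccl4 rose in TLR (2.63 ± 0.30, adjusted p = 9.1e-09) and BCR (1.09 ± 0.30, adjusted p = 0.00276). Ccl3 rose in TLR (1.87 ± 0.27, adjusted p = 9.04e-07) and fell in BCR (−1.32 ± 0.27, adjusted p = 0.000206).

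In LPS cultures the genotype difference of Ccl3 and Ccl4 had the other sign. At day 4 Ccl3 read 5.03, 5.32 and 5.13 in dEx1A, against 5.92, 5.81 and 6.22 in WT (−0.82 ± 0.27, adjusted p = 0.0271). Ccl4 read 4.18, 4.57 and 4.66 in dEx1A, against 5.43, 5.64 and 6.18 in WT (−1.28 ± 0.30, adjusted p = 0.00178). At day 7 the differences were −1.02 ± 0.27 for Ccl3 (adjusted p = 0.0167) and −0.56 ± 0.30 for Ccl4 (adjusted p = 0.348). No dEx1A library overlapped WT at day 4 for these genes, and at day 7 the genotypes overlapped for both. The day 4 comparison crosses the depth sets. The Ccl3 call was lost in 6 of 13 alternative analyses at day 4 (−1.16 to −0.65, largest adjusted p = 0.107) and in 6 of 13 at day 7 (−1.30 to −0.81, largest adjusted p = 0.129), among them voom on recovered reads on both days. WT LPS cells gained Ccl3 from day 4 to day 7 (1.03 ± 0.27, adjusted p = 0.0147), a call lost in 5 of 13 alternatives.

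Ccl5, which draws T cells and monocytes, followed the stimulus in another order than Ccl3. In the WT TLR series it read 6.32, 6.65 and 5.87 in B cells, 8.71, 8.68 and 8.51 at day 4, 5.84, 6.68 and 6.53 at day 7, and 6.42, 6.27 and 5.59 at day 10. It stood highest at day 4 and overlapped B cells thereafter. The rise was 2.35 ± 0.28 (adjusted p = 2.01e-06) and the fall from day 4 to day 7 was −2.28 ± 0.28 (adjusted p = 5.57e-06). WT BCR libraries read 5.78, 6.04 and 5.89 at day 4, 6.91, 6.43 and 6.37 at day 7, and 6.74, 7.16 and 6.24 at day 10, and neither of the first steps was called (−0.38 ± 0.28, adjusted p = 0.289, and 0.67 ± 0.28, adjusted p = 0.0872). At day 4 all TLR libraries exceeded all BCR libraries (2.73 ± 0.28, adjusted p = 5.33e-06). The step from day 4 to day 7 differed between the cultures by −2.95 ± 0.40 (adjusted p = 0.00052). Ccl5 was the member called in this test of the steps, where 1.69% of genes were called.

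Ccl5 was higher in dEx1A than in WT cells at day 7 in the TLR and BCR cultures. It read 8.43, 7.90 and 9.05 in dEx1A TLR cells at day 7, against 5.84, 6.68 and 6.53 in WT (2.11 ± 0.30, adjusted p = 1.17e-06). In BCR cells at day 7 it read 9.97, 9.26 and 9.21 in dEx1A, against 6.91, 6.43 and 6.37 in WT (2.91 ± 0.30, adjusted p = 3.21e-09). Neither pair of groups overlapped. At day 4 the differences were −0.50 ± 0.30 in TLR (adjusted p = 0.33) and 1.00 ± 0.30 in BCR (adjusted p = 0.0873), and the BCR difference passed once GC content and length were corrected for (adjusted p = 0.0448). The genotype difference grew from day 4 to day 7 by 2.61 ± 0.42 in TLR (adjusted p = 2.01e-05) and by 1.91 ± 0.42 in BCR (adjusted p = 0.00103). In LPS at day 4 Ccl5 was lower in dEx1A (5.15, 5.40 and 5.55) than in WT (6.36, 6.27 and 6.60), by −1.04 ± 0.30 (adjusted p = 0.0102). That call ended without dEx1A replicate 1 (adjusted p = 0.0606). In BCR at day 7, 12 T and NK cell markers summed to 1552, 183 and 3274 reads in dEx1A, against 825, 402 and 353 in WT. In TLR at day 7 they summed to 2299, 2576 and 1562 in dEx1A, against 1911, 1753 and 1471 in WT. The genotypes overlapped in both sums, and the part of these markers was not tested.

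Cxcl10, the interferon-inducible CXCR3 ligand, had its highest group mean in dEx1A LPS cells at day 7 (7.23). WT LPS cells read 6.81, 6.75 and 6.70 at day 4, against 4.16, 4.29 and 4.74 in B cells (2.36 ± 0.27, adjusted p = 6.02e-09). WT TLR cells read 5.61, 6.33 and 5.62 at day 4 (1.46 ± 0.43 over B cells, adjusted p = 0.00869) and 4.33, 4.40 and 4.06 at day 7 (−1.59 ± 0.43 against day 4, adjusted p = 0.00675). WT BCR cells read 4.56, 5.16 and 4.80 at day 4, overlapping B cells (0.44 ± 0.43, adjusted p = 0.41). TLR exceeded BCR at day 4 in every library, but the difference of 1.01 ± 0.43 did not pass (adjusted p = 0.19). It passed within dEx1A cells, where TLR read 6.04, 6.52 and 6.42 and BCR 4.55, 5.31 and 5.22 (1.3 ± 0.27, adjusted p = 0.000536). At day 4 dEx1A LPS cells (6.05, 6.28 and 6.09) overlapped dEx1A TLR cells (−0.19 ± 0.27, adjusted p = 0.601). At day 7 dEx1A LPS cells (7.21, 7.39 and 7.08) exceeded dEx1A TLR cells (4.29, 4.34 and 4.87) by 2.73 ± 0.27 (adjusted p = 3.67e-09) and dEx1A BCR cells (5.25, 4.46 and 5.23) by 2.25 ± 0.27 (adjusted p = 4.81e-08). Days 7 and 4 differed by −0.09 ± 0.27 in WT LPS cells (adjusted p = 0.933), and Cxcl10 rose in dEx1A LPS cells (1.09 ± 0.27, adjusted p = 0.00188). The change of the genotype difference, 1.18 ± 0.38, did not pass (adjusted p = 0.0602, where 5.48% of genes were called). It passed with only those groups in the fit (adjusted p = 0.00466), with the stricter filter (0.0452) and after GC and length correction (0.031). The dEx1A step crosses the depth sets, and the WT step does not.

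Cxcl10 did not pass between genotypes in any of the 6 comparisons. The differences ran between −0.61 ± 0.27 (LPS day 4, adjusted p = 0.0918) and 0.59 ± 0.27 (BCR day 7, adjusted p = 0.0622). After correction for GC content and length both passed, at −0.72 (adjusted p = 0.0439) and 0.69 (adjusted p = 0.032). Cxcl16, the transmembrane chemokine, passed in none of the 6 either, with differences of −0.04 ± 0.28 to 0.50 ± 0.28. It read 5.20, 5.50 and 5.30 in B cells and was lower in WT LPS cells at day 4 (3.88, 4.41 and 4.24), by −1.16 ± 0.28 (adjusted p = 0.000652). In dEx1A BCR cells it read 5.67, 5.03 and 6.51 at day 7, against 4.79, 4.80 and 4.78 at day 4, a rise of 0.95 ± 0.28 (adjusted p = 0.00494). That rise was not called without day 7 replicate 3 (0.56, adjusted p = 0.0844), the library of the group with the most macrophage marker reads, nor when only the compared groups entered the fit (0.95, adjusted p = 0.0567). In dEx1A LPS cells Cxcl16 at day 7 differed from day 4 by 0.65, which was called with the replicate number as a block (adjusted p = 0.02) and not without it (adjusted p = 0.0706).

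**Figure D2:**
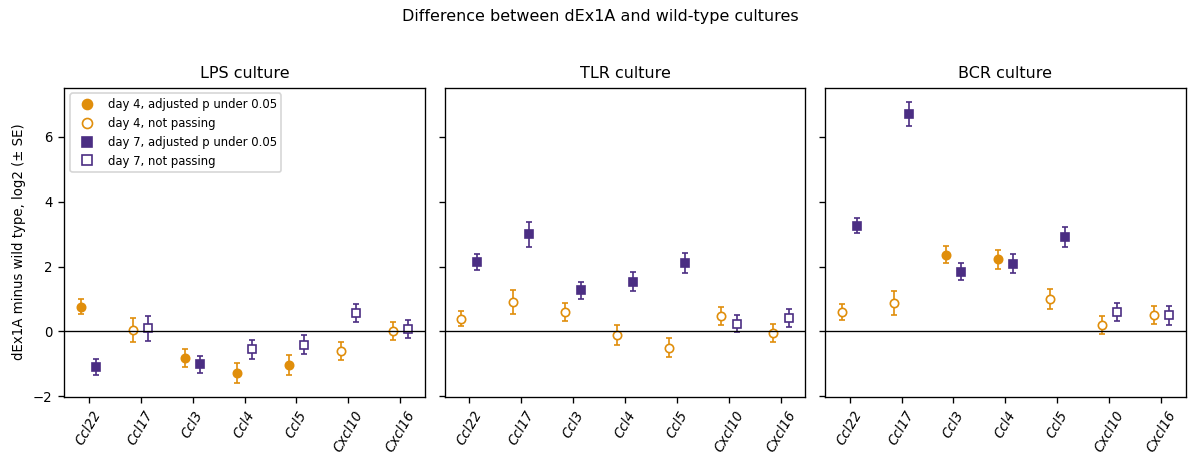
Difference of dEx1A and wild-type groups (y axis, log2, with the standard error of the fit) for the 7 chemokines (x axis) in the LPS, TLR and BCR cultures at days 4 (circles) and 7 (squares), filled where the adjusted p was below 0.05. Ccl17 in the day 7 BCR culture stands highest at 6.71, and the called values are below 0 in LPS except for Ccl22 at day 4.

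Set side by side, the genotype comparisons share no libraries with each other. In BCR at day 7, 5 of 7 members were higher in dEx1A and none lower, where 50.8% of 20331 genes were called. In TLR at day 7 the same 5 members, Ccl22, Ccl17, Ccl3, Ccl4 and Ccl5, were higher, where 54.8% were called. Since about 1 gene in 2 was called on that day, these counts are read against that background. The median member difference was 2.09 in BCR and 1.53 in TLR, against 0.000 and −0.043 over all genes. In TLR at day 4 no member passed, with 7.23% of genes called, and 2 of the 7 had an unadjusted p below 0.05; median centring gave 2 calls and the GC and length correction 1. In LPS at day 4 1 member was higher and 3 lower (24.4% called), and at day 7 none was higher and 2, Ccl22 and Ccl3, were lower (7.08% called).

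The day 7 TLR and BCR comparisons set dEx1A libraries under 20 M reads against deeper WT libraries, and females aged 9 weeks against males aged 7 weeks. Depth set, sex, age and genotype cannot be told apart there. After correction for GC content and length the 5 members kept their calls in both cultures. The BCR values became 6.47 for Ccl17, 3.11 for Ccl22, 2.55 for Ccl5, 2.05 for Ccl4 and 1.94 for Ccl3. The TLR values became 2.65 for Ccl17, 2.02 for Ccl22, 1.69 for Ccl5, 1.51 for Ccl4 and 1.48 for Ccl3. All adjusted p in the other alternatives for these 10 values were at most 0.00382.

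Counts over time and stimulus were set against their own backgrounds. At day 4 of the WT TLR culture 4 members were higher than in B cells and none lower (48.3% of 19497 genes called), and at day 7 4 were lower than at day 4 (36.3% called). At day 4 of the WT BCR culture 3 were higher (50.6% called), and at day 7 2 were lower (30.5% called). TLR against BCR at day 4 gave 1 member higher and 3 lower where 7.57% of genes were called, and at day 7 1 lower where 6.27% were called. WT LPS cells at day 4 had 2 members higher and 1 lower than B cells (58% called), and at day 7 3 were higher than at day 4 (8.4% called). From day 7 to day 10 no member was called in TLR (8.2% of genes called, and 1 member at an unadjusted p below 0.05), with the same 0 under each of the alternative analyses run. The steps of TLR and BCR from day 7 to day 10 did not differ by the same test for any member, where 0.0667% of genes were called and 2 members had an unadjusted p below 0.05.

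The stimuli were also compared within the dEx1A cultures. TLR against BCR at day 4 gave 2 members higher (Ccl5 and Cxcl10) and 4 lower (16.7% of genes called), and at day 7 none higher and 6 lower (31.5% called). Ccl17 differed by −3.08 ± 0.38 at day 4 (adjusted p = 2.35e-07) and −5.23 ± 0.38 at day 7 (adjusted p = 6.12e-12), and Ccl3 by −4.68 ± 0.27 at day 4 (adjusted p = 4.65e-14). LPS lay below TLR in 4 members at day 4 (45.3% called) and in 5 at day 7, with Cxcl10 higher (17.4% called). LPS lay below BCR in 5 members at day 4 and 6 at day 7, with Cxcl10 higher on both days (36% and 29.8% called). Ccl22 differed between LPS and BCR by −7.96 ± 0.24 at day 4 and −6.39 ± 0.24 at day 7 (adjusted p = 1.14e-21 and 4.52e-19). From day 4 to day 7, 5 members rose in dEx1A LPS (34.1% called), 2 rose and 1 fell in dEx1A TLR (62.1% called), and 4 rose and 1 fell in dEx1A BCR (53.9% called). The dEx1A TLR minus BCR difference at day 7 differed from that of WT by −3.72 ± 0.53 for Ccl17 (adjusted p = 2.67e-05) and −1.12 ± 0.34 for Ccl22 (adjusted p = 0.0357), where 9.51% of genes were called.

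At day 10 the libraries richest in macrophage markers, BCR replicates 1 and 2 and TLR replicate 2, were the highest of their groups for Ccl3, Ccl4 and Cxcl16. Ccl3 did not follow the full order of the marker sums within either group. In WT BCR at day 10 Cxcl16 read 8.98, 8.33 and 6.36, against 5.13, 5.79 and 4.82 at day 7 (2.64 ± 0.60, adjusted p = 0.00561). Ccl3 read 10.15, 10.58 and 7.17 and Ccl4 9.10, 8.84 and 5.66 at day 10, against 7.58 to 7.96 and 6.96 to 7.68 at day 7. Replicates 1 and 2 were high for all 3 genes, and replicate 3 lay below the day 7 libraries for Ccl3 and Ccl4. The macrophage marker sums of these day 10 libraries were 278723, 233339 and 30998 reads, against 4270 to 10084 at day 7. In WT TLR at day 10 replicate 2 had 87937 marker reads, 8.41 for Ccl3, 7.67 for Ccl4 and 7.69 for Cxcl16, while the other replicates had 8832 and 14373 marker reads, 6.51 and 6.31 for Ccl3, 6.30 and 6.31 for Ccl4, and 5.05 and 5.19 for Cxcl16. Each of the 16 macrophage markers was detected in at least 1 day 10 library of each culture, and their part in these values was not tested.

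**Figure D3:**
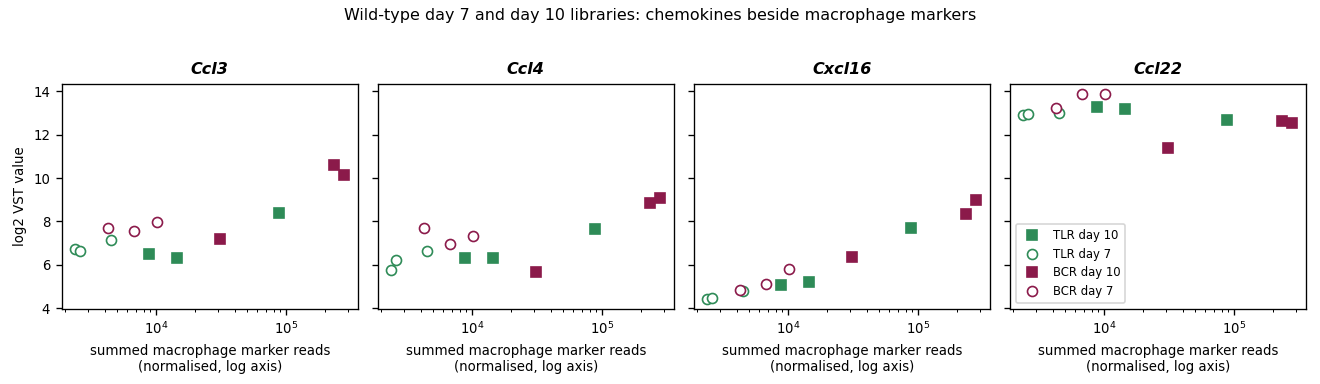
Log2 expression of Ccl3, Ccl4, Cxcl16 and Ccl22 (y axis) against the summed normalised reads of 16 macrophage markers (x axis, log scale) in the 12 wild-type TLR and BCR libraries of day 10 (filled) and day 7 (open). The 2 BCR day 10 libraries with the most marker reads hold the highest Ccl3, Ccl4 and Cxcl16, while Ccl22 is not highest in them.

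Without BCR replicates 1 and 2, left out after the data were seen, the Cxcl16 difference from day 7 was 1.11. These were the libraries highest for Cxcl16, so leaving them out had to lower the difference. As it also leaves 1 day 10 library, the value does not test the part of the macrophage markers. Without replicate 3 alone, Ccl3 was called at 2.62 (adjusted p = 0.000337) and Ccl4 at 1.64 (adjusted p = 0.00434). TLR lay below BCR at day 10 by −2.22 ± 0.64 for Ccl3 (adjusted p = 0.0285) and −1.91 ± 0.60 for Cxcl16 (adjusted p = 0.04), where 14.4% of genes were called. Without those BCR libraries and TLR replicate 2 the values were −0.76 and −1.24, and Ccl22 was higher in TLR by 1.84. That choice was also made after the data were seen and leaves 1 BCR library. Of 14 alternative analyses, 7 kept the Ccl3 call and 6 the Cxcl16 call, and both were lost without TLR replicate 1 or 3 or BCR replicate 1 or 2. BCR day 10 against day 7 had 1 member higher, Cxcl16, and 1 lower, Ccl22 (16.7% of genes called). Ccl6, a chemokine of myeloid cells, read 14.78, 15.41 and 12.35 in the BCR day 10 libraries, against 9.73, 9.10 and 6.93 at day 7.

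Receptors of these ligands were measured in the same cells. Ccr4, the receptor of CCL22 and CCL17, averaged 9.16 ± 0.09 in TLR and 9.18 ± 0.03 in BCR cells at day 4, against 3.30 ± 0.45 in B cells (SD, n = 3 each). It rose over B cells by 5.86 in TLR (adjusted p = 2.05e-12) and 5.88 in BCR (adjusted p = 2e-12), and day 7 differed from day 4 by −2.86 in TLR and −1.97 in BCR (adjusted p = 5.13e-08 and 6.31e-06). In LPS cells of either genotype Ccr4 averaged 3.43 to 3.59. It was lower in dEx1A TLR cells than in WT at day 4 (7.99 and 9.16, adjusted p = 0.00607) and day 7 (5.47 and 6.30, adjusted p = 0.00937), while its ligands were higher at day 7. Ccr1 and Ccr3 were lower at day 4 than in B cells in both cultures, with differences of −3.50 and −4.32 in TLR and −3.27 and −4.57 in BCR.

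Cxcr3, the receptor of CXCL10, was higher in dEx1A than in WT BCR cells at day 7 (7.33 ± 0.18 and 5.28 ± 0.14, difference 2.06, adjusted p = 3.49e-08) and in dEx1A TLR cells (difference 0.79, adjusted p = 0.00634). Cxcr6, the receptor of CXCL16, passed in no genotype comparison, and the scavenging receptor Ackr2 was higher in dEx1A LPS cells at day 4 (1.28, adjusted p = 0.000216). The scavenging receptor Ackr1 did not pass the filter on low values in the table of both genotypes. Of the proteases, Adam10, which sheds CXCL16, was lower in dEx1A at day 7 in TLR (−1.22, adjusted p = 5.28e-05) and BCR (−1.02, adjusted p = 0.000448), and Adam17 in BCR (−0.53, adjusted p = 0.00553). Dpp4, the peptidase that trims the ends of CCL22 and CXCL10, was lower at day 4 than in B cells in TLR (−1.47, adjusted p = 0.000352), BCR (−2.92, adjusted p = 1.26e-07) and LPS (−0.85, adjusted p = 0.00717).

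Of 32 further mouse chemokine genes listed, 25 were in the tables and 13 had a group mean at least 3 above the floor. Cx3cl1, the membrane chemokine between Ccl22 and Ccl17, averaged 7.97 ± 0.26 in dEx1A BCR day 7 cells, against 5.93 ± 0.49 in WT (2.04 ± 0.28, adjusted p = 7.92e-07), and was also higher in dEx1A TLR day 7 (1.82 ± 0.28, adjusted p = 5.27e-06). Ccl1, a CCR8 ligand, averaged 7.90 ± 0.97 in dEx1A BCR day 4 cells, against 4.59 ± 0.03 in WT (3.31 ± 0.31, adjusted p = 8.8e-09), and the lymphotactin gene Xcl1 differed by 2.03 ± 0.33 (adjusted p = 0.000286). These were the 2 of 19 further chemokines called in that comparison, where 1.86% of genes were called. Ccl24, an eotaxin, read 9.05, 6.33 and 10.43 in dEx1A BCR day 7 cells, against 5.05, 4.84 and 4.53 in WT (3.80 ± 0.53, adjusted p = 7.01e-07). The macrophage marker sums of these dEx1A libraries, 20803, 6916 and 35242, had the same order, and their part was not tested. At day 4 Ccl2 and Ccl7 rose over B cells in TLR (3.99 and 3.49, adjusted p = 0.00359 and 0.0193) and BCR (3.93 and 3.72, adjusted p = 0.00375 and 0.0128), in libraries that also held fibroblast marker reads, whose part was not tested. Ccl6, Ccl7, Ccl8, Ccl9, Ccl12, Ccl2, Pf4 and Ppbp had their highest mean in BCR day 10 cells (7.26 to 14.18), in libraries with many macrophage marker reads, and Ccl25 stayed between 6.28 and 7.59 in all groups.

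**Figure D4:**
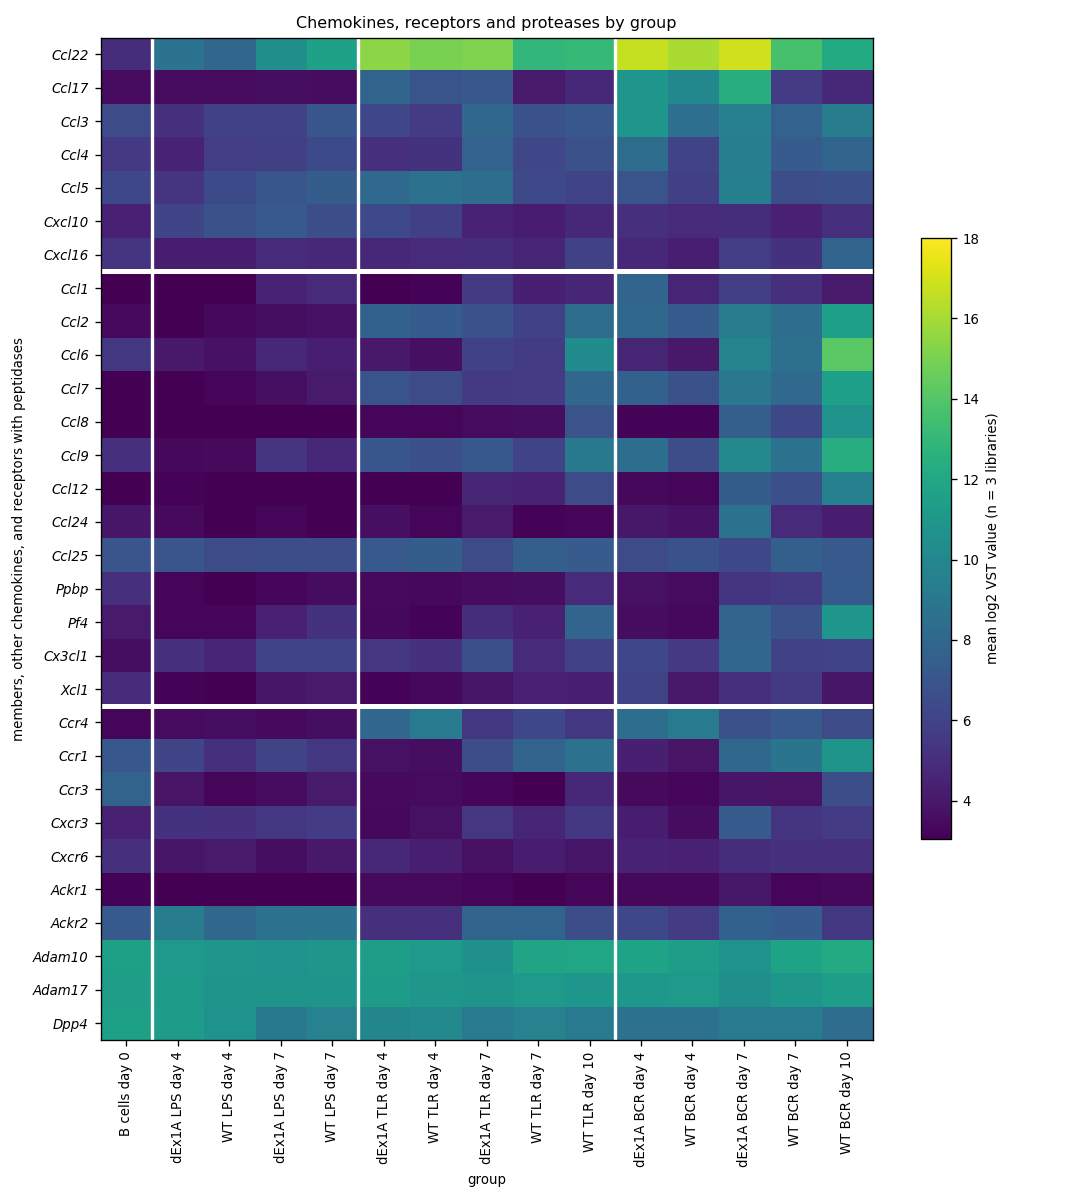
Mean log2 expression (colour, n = 3 libraries) of the 7 members, the 13 further chemokines above the naming limit, and receptors and proteases (rows, from top to bottom) in the 15 groups (columns). Ccr4 is high in the TLR and BCR columns at day 4, and the Ccl6 to Ccl12 rows are highest in the BCR day 10 column.

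Lists of genes known to act upstream or beside these chemokines were counted in the same fits. Of 10 genes of the IL-4 and STAT6 response, 7 rose and 2 fell in BCR at day 4 (median difference 3.68, against 0.000 over all genes, of which 50.6% were called) and 6 rose and 2 fell in TLR (3.36, against 0.007, with 48.3% called). Cish, a cytokine-induced inhibitor of STAT signalling, rose by 6.76 ± 0.31 in BCR (adjusted p = 6.99e-12) and 6.74 ± 0.31 in TLR (adjusted p = 7.1e-12). In WT LPS at day 4, 4 rose and 3 fell (median 0.29, with 58% of genes called). In dEx1A at day 7, 6 rose and 3 fell in TLR (54.8% called) and 5 rose and 2 fell in BCR (50.8% called), with Socs1, another such inhibitor, higher by 3.21 ± 0.29 (adjusted p = 5.85e-10) and 2.52 ± 0.29 (adjusted p = 3.28e-08), and Ighg1, the IgG1 constant region, lower by −2.35 ± 0.46 (adjusted p = 0.000101) and −3.35 ± 0.46 (adjusted p = 6.67e-07).

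Of 25 interferon-stimulated genes, 21 were higher and none lower in TLR than in BCR at day 4, where 7.57% of genes were called, with Isg15, a ubiquitin-like modifier, at 2.99 ± 0.52 (adjusted p = 0.00112). In WT LPS at day 4, when Cxcl10 rose, 5 rose and 18 fell against B cells, with 58% of genes called (Ifit3 −4.89 ± 0.32, adjusted p = 4.17e-14). In dEx1A TLR at day 7, 3 rose and 20 fell (54.8% called). Of 20 NF-kB factors and targets, 13 rose and 2 fell in dEx1A TLR at day 7 (median 0.77, with 54.8% of genes called), and 14 rose and 3 fell in dEx1A BCR (median 1.08, with 50.8% called). The lymphotoxin gene Lta was higher there by 2.97 ± 0.28 (adjusted p = 7.57e-10). In BCR at day 4, when Ccl3 and Ccl4 were higher in dEx1A, 2 of the 20 rose (Bcl2a1b and Nfkbiz), with 1.86% of genes called. Of 13 early genes of antigen receptor signalling 4 rose in that comparison and none fell, with Egr3 at 1.39 ± 0.20 (adjusted p = 2.65e-05) and Nr4a1 at 1.35 ± 0.24 (adjusted p = 0.00092). In WT LPS from day 4 to day 7, when Ccl22 rose, 10 of the 13 rose where 8.4% of genes were called (Egr1 by 2.86 ± 0.38, adjusted p = 1.11e-05). Of 10 plasma cell markers, 8 fell and none rose in dEx1A BCR at day 7 (50.8% called), 5 fell and 2 rose in dEx1A TLR at day 7 (54.8% called), and 9 fell in dEx1A LPS at day 4 (24.4% called). Their summed reads were 71208 to 121246 in dEx1A and 476400 to 645102 in WT in BCR at day 7, and 429029 to 528682 in dEx1A and 1207475 to 1702941 in WT in TLR. Of 10 B cell markers, 6 fell and none rose in dEx1A BCR at day 7, and 5 fell and 1 rose in dEx1A TLR. The part of these shifts in the chemokine values was not tested.

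Over the 15 group means the gene most like Ccl22 among 19124 was Cish (Pearson r = 0.969), followed by Tnfsf8, which encodes CD30 ligand (0.951), and Tspan33, a tetraspanin of activated B cells (0.951). Ccl17 was followed by 6430571L13Rik (0.987), Tnp2 (0.973) and the pseudogene Gm5541 (0.966), and the r between Ccl17 and Ccl22 was 0.82. Nearest to Ccl3 were S100a4 (0.902), 6330403L08Rik (0.90) and Penk (0.897). Ccl4 was nearest to Tmem51 (0.886), Ccl3 (0.884) and Olfm1 (0.88). Ccl5 was nearest to Tmem119 (0.94), Jdp2 (0.895) and Sipa1l3 (0.871), and Cxcl10 to the interferon-stimulated gene Isg15 (0.854), Ptgir (0.85) and 0610039K10Rik (0.838). Cxcl16 was nearest to Pdgfb (0.979), Il1a (0.974) and Cebpa (0.973), whose means, like those of Cxcl16, include the day 10 BCR group. These values describe likeness over 15 means that share libraries, cultures and depth.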

How the data were processed

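Gene expression was measured by RNA-seq in 45 libraries, 3 in each of 15 groups. Per the labels' protocols, stranded total RNA libraries were read as single 76-base reads. The submitters' processing notes list STAR 2.6.0c with RSEM 1.3.0, and DESeq2 1.22.2 in R. The authors deposited 2 tables of variance-stabilised log2 values for 28196 genes, rounded to 2 decimals, so low levels are compressed and 0 reads sit at 3.04. One table holds wild-type libraries (21 columns) and the other both genotypes (39 columns), and 15 shared columns are identical.

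Each table was fitted with limma 3.58.1 (R 4.3.3), 1 mean per group, on genes at least 1 above the floor in 3 libraries (19497 and 20331 genes), with Benjamini-Hochberg adjustment over all of them. WT TLR and BCR comparisons used the first table and all others the second. The design named no count test, and none is the main result. Reads were recovered from the steps between low values, of which 92.6% to 100.0% per library were whole within 0.1 reads. These gave depth, normalised reads per kb and the voom alternative. The scripts were tested on simulated data. Alternatives were other filters, median centring, voom, a GC and length correction, only the groups compared, a replicate block, and leaving out libraries. Pairing by replicate number was judged from the correlation of same-numbered libraries' deviations from their group means. It was over 0.1 in all 3 pairs for WT TLR with BCR at day 4 and day 10. The same held for dEx1A TLR with BCR at day 4 and dEx1A LPS day 7 with day 4, and for no other groups. Base composition also varied alike, as in WT day 4 (GC offsets −0.21, 0.05 and −1.2 in TLR, −0.59, 0.11 and −1.2 in BCR). Shared origin and shared base composition cannot be told apart in these correlations. Of 28196 identifiers, 27478 matched GENCODE M21, and 1 gene with a value below the floor was left out.

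Named genes were the 7 members, their receptors (1 is not reported here) and proteases, further chemokines with a group mean at least 3 above the floor, up to 3 genes of each other list with the largest difference, and the 3 genes most like each member over the 15 group means. The members and lists were chosen with earlier results of these data known.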

Additional observations from a re-analysis of the deposited data

Results flagged for a closer look

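Differences of 2 effects passed limma's test of the difference itself for 13 results, after Benjamini-Hochberg adjustment over all genes. The TLR step of Ccl5 between days 4 and 7 differed from the BCR step by −2.95 (adjusted p = 0.00052). The TLR minus BCR difference of dEx1A cells differed from that of WT cells at day 4 by −1.77 for Ccl3 (adjusted p = 0.0181) and −2.35 for Ccl4 (adjusted p = 0.00306). At day 7 it differed by −1.12 for Ccl22 (adjusted p = 0.0357) and −3.72 for Ccl17 (adjusted p = 2.67e-05).

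The dEx1A minus WT difference changed between days 4 and 7, in tests added after the values were seen. In LPS it changed by −1.86 for Ccl22 (adjusted p = 0.00123). In TLR it changed by 1.75 for Ccl22 (adjusted p = 0.000155), 2.08 for Ccl17 (adjusted p = 0.00193), 1.66 for Ccl4 (adjusted p = 0.00173) and 2.61 for Ccl5 (adjusted p = 2.01e-05), where 49.4% of genes were called. In BCR it changed by 2.67 for Ccl22 (adjusted p = 8.91e-07), 5.84 for Ccl17 (adjusted p = 2.87e-09) and 1.91 for Ccl5 (adjusted p = 0.00103), where 33.9% were called. Read depth changes with the dEx1A day in all of these and cannot be told apart from it.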

How the results depend on the processing

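Of 231 member values in 33 comparisons, 98 of 3272 values under alternatives changed sign, none of them a value that had passed. Every dEx1A against WT call at TLR day 7, BCR day 4 and BCR day 7 passed in all 13 alternatives run. The number of members called moved by over 1.5 times in the following fits, and the cause was not tested. In fits restricted to the compared groups it was 5 for BCR day 7 against day 4 (2 in the fit of all groups), 0 for BCR day 10 against day 7 (2), 2 for TLR against BCR at day 7 (1), 0 at day 10 (2), 2 for the difference of the TLR and BCR steps (1), 1 for dEx1A against WT LPS day 7 (2), 1 for the genotype difference of TLR minus BCR at day 4 and 1 at day 7 (2 each), and 2 for the change of the LPS genotype difference (1). With voom it was 0 for TLR against BCR at day 10, 1 for WT LPS day 7 against day 4 (3), 1 for dEx1A against WT LPS day 7 and 1 for the day 7 genotype difference of TLR minus BCR, where Ccl17 was −2.77 (adjusted p = 0.102). Median centring gave 2 for dEx1A against WT TLR day 4 (0) and 5 for dEx1A TLR day 7 against day 4 (3). Library medians of TLR day 4 in that fit were 6.24 to 6.44 in dEx1A and 6.32 to 6.63 in WT. The GC and length correction gave 1 for dEx1A against WT TLR day 4, 2 for the TLR and BCR steps and 2 for the change of the LPS genotype difference, which was also 2 with the stricter filter. Moves of 1.5 times gave 6 in place of 4 for TLR day 4 against B cells, TLR day 7 against day 4 and dEx1A LPS against TLR day 4, and 4 in place of 6 for dEx1A TLR against BCR day 7, in restricted fits. They gave 3 in place of 2 for TLR against BCR day 10 (centring, GC and length correction), BCR day 10 against day 7 (centring) and dEx1A against WT BCR day 4 (GC and length correction). Without the filter, TLR against BCR at day 10 gave 1. Without the day 10 libraries rich in macrophage markers, chosen after seeing the data, BCR day 10 against day 7 gave 1 and TLR against BCR at day 10 gave 1.

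Leaving out 1 library at a time, the counts ranged from 3 to 4 for TLR against BCR at day 4, 0 to 1 at day 7 and 0 to 4 at day 10, 0 to 2 for the steps from day 7 to day 10, 2 to 4 for BCR day 10 against day 7, 3 to 4 for WT LPS day 4 against B cells, 1 to 3 for WT LPS day 7 against day 4, 2 to 4 for dEx1A against WT LPS day 4 and 1 to 2 at day 7, 5 to 7 for dEx1A against WT BCR day 7, 4 to 5 for dEx1A LPS and BCR day 7 against day 4, 3 to 4 for dEx1A TLR, 6 to 7 for dEx1A LPS against BCR day 7, 4 to 7 for dEx1A TLR against BCR day 7, and 1 to 2 for the genotype difference of TLR minus BCR on either day. In the other comparisons the count did not move. Over all pairs of groups of a set, same-numbered libraries correlated between −0.61 and 0.82, and 11 of 18 dEx1A and 12 of 21 WT TLR, BCR and B cell libraries correlated best with their own number. The replicate block lost no passing member and added 3 calls of Cxcl16 within dEx1A, LPS day 7 against day 4 (0.65, adjusted p = 0.02), LPS against TLR day 4 (−0.61, adjusted p = 0.0218) and LPS against BCR day 4 (−0.62, adjusted p = 0.0247), and changed no other call of a member. Depth limits the low genes: Ccl17 in LPS cells lies near the value of 0 reads.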
